A study of Mus musculus with 11 samples.

Results

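The genes described here are 10 WNT targets and feedback genes, chosen by symbol: the β-catenin targets Axin2, Sp5, Lgr5, Dkk1, Nkd1, Notum and Rnf43 and the TCF/LEF factor genes Lef1, Tcf7 and Tcf7l1. Of the 10, 9 were measured among 19935 genes in all, each by 1 transcript cluster (the array's unit for a gene or part of a gene), and Tcf7 was not analysed here. Expression was profiled on 11 one-colour Affymetrix arrays of total RNA from mouse embryonic stem cells (ESCs). The 4 groups were Bmpr1a-/- cells after 3 days of culture in N2B27, which lacks serum and lets ESCs differentiate (n = 3), E14 control cells after 3 days in N2B27 (n = 3), Bmpr1a-/- cells in ESC medium (n = 2, numbered 2 and 3, with number 1 not analysed here) and E14 control cells in ESC medium (n = 3). Bmpr1a codes for one of the type I BMP receptors. The mutant cells came from 3 lines (C1-6, Fr124 and Fr88) that the labels do not assign to arrays, and all control arrays came from 1 line, so a genotype difference cannot be told apart from a difference between lines. No age, sex or Cre driver is given for the cells, and no label states separate cultures for replicate arrays. The p-values therefore reflect only how these arrays scatter, which may be technical.

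In the canonical WNT pathway, a Wnt protein bound to a Frizzled receptor and an LRP co-receptor stops the destruction complex of Axin, APC and GSK3 from degrading β-catenin, which then binds TCF/LEF factors in the nucleus and activates their targets. Many of these targets encode inhibitors of the pathway, so their transcripts report both signalling and its restraint. In mouse ESCs, Tcf7l1 (also known as Tcf3) mainly represses genes of the naive pluripotent state, and β-catenin relieves that repression.

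TCF/LEF factors bind the sequence CTTTGAT and close variants of it. The RefSeq promoter table of assembly GRCm38.p6 held windows of 300 bases for 8 of the 10 genes, 13 windows in all, with none matched for Lgr5 and Notum. CTTTGAT or its reverse complement ATCAAAG lay in 3.73% of all 32851 windows, CTTTGTT or AACAAAG in 5.85%, and at least 1 of them in 9.33%. Among the genes described here, 2 windows held a match, those of Sp5 and Dkk1. The windows of Sp5 and Dkk1 are shown because they carry the motif, and those of Axin2 and Lef1 because these genes and Sp5 gave the largest genotype differences in ESC medium with groups apart, with matches in capitals and positions counted from the transcription start. The Sp5 window is chr2:70474673-70474972 on the plus strand, with AACAAAG starting at -222 and CTTTGAT at -104. The Dkk1 window is chr19:30549447-30549746 on the minus strand, with CTTTGTT starting at -98. The Axin2 window, chr11:108920099-108920398, and the most upstream of the 4 Lef1 windows, chr3:131110047-131110346, both on the plus strand, held neither motif, and the other 3 Lef1 windows held none either.
Sp5: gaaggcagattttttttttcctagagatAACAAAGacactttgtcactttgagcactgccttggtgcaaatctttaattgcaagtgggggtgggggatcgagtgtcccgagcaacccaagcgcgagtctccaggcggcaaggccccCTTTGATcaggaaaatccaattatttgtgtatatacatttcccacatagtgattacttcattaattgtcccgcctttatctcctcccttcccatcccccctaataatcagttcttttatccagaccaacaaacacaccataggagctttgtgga
Dkk1: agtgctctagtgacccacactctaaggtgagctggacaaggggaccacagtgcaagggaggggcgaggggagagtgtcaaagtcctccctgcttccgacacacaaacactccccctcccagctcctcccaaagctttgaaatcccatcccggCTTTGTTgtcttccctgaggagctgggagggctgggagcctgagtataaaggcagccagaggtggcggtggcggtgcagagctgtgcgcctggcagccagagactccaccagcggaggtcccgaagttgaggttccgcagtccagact
Axin2: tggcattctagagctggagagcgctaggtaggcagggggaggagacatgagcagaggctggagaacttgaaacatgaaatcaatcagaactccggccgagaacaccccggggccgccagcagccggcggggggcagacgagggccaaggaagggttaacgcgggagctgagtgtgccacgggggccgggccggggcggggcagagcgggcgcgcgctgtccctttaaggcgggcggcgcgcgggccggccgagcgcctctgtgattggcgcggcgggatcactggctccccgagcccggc
Lef1: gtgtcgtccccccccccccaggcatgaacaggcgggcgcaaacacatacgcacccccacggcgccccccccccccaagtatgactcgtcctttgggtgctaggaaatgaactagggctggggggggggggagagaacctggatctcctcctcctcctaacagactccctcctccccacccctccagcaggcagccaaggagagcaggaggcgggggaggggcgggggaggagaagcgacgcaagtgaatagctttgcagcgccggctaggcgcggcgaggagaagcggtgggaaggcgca
These matches are letters in a window and no evidence of binding. Sp5 and Dkk1 were the 2 genes with a match, and they differed in the arrays: the range over the 11 arrays was wide for Sp5 (-0.22 to 1.40) and narrow for Dkk1 (-0.06 to 0.14).

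All values are log2 values that the authors had centred on a baseline for each gene, so they compare arrays within a gene but not genes with each other, and a negative value does not mean low expression. As a check of the labels, Bmpr1a read 0.15, -0.14 and -0.05 in mutant against 0.61, 0.68 and 0.76 in control arrays in N2B27, and -0.03 and 0.00 in mutant against 0.37, 0.16 and 0.25 in control arrays in ESC medium, with no overlap in either medium. By limma the Bmpr1a difference was called in N2B27 (-0.70, adjusted p = 0.00211) and not in ESC medium (-0.27, adjusted p = 0.145). Groups were apart for 20.2% of all genes in N2B27 and for 39.4% in ESC medium. Which part of the gene is deleted is not stated either, so Bmpr1a is a weak check. Of 8 marker genes of pluripotent cells, 7 fell in N2B27 in mutant cells, against 10.3% of all genes lower, and 7 in control cells, against 13.3%, while brightness, which would show that a marker is present or absent, is lost by the centring. The array of mutant replicate 2 in N2B27 stood apart, with a root mean square deviation from its group mean of 0.185 against 0.0774 to 0.155 for the other arrays. Of the 9 WNT genes, 8 lay above their group mean on this array, 0 on mutant replicate 1 and 2 on mutant replicate 3 in N2B27. The share of all genes was not counted. Over all clusters the median was also highest on mutant replicate 2 (0.0357) and lowest on mutant replicate 1 in N2B27 (-0.0250). Deviations within a group cancel, so a high array leaves the others lower. Results that rest on mutant replicate 2 in N2B27 are therefore also given without it.

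**Figure D1:**
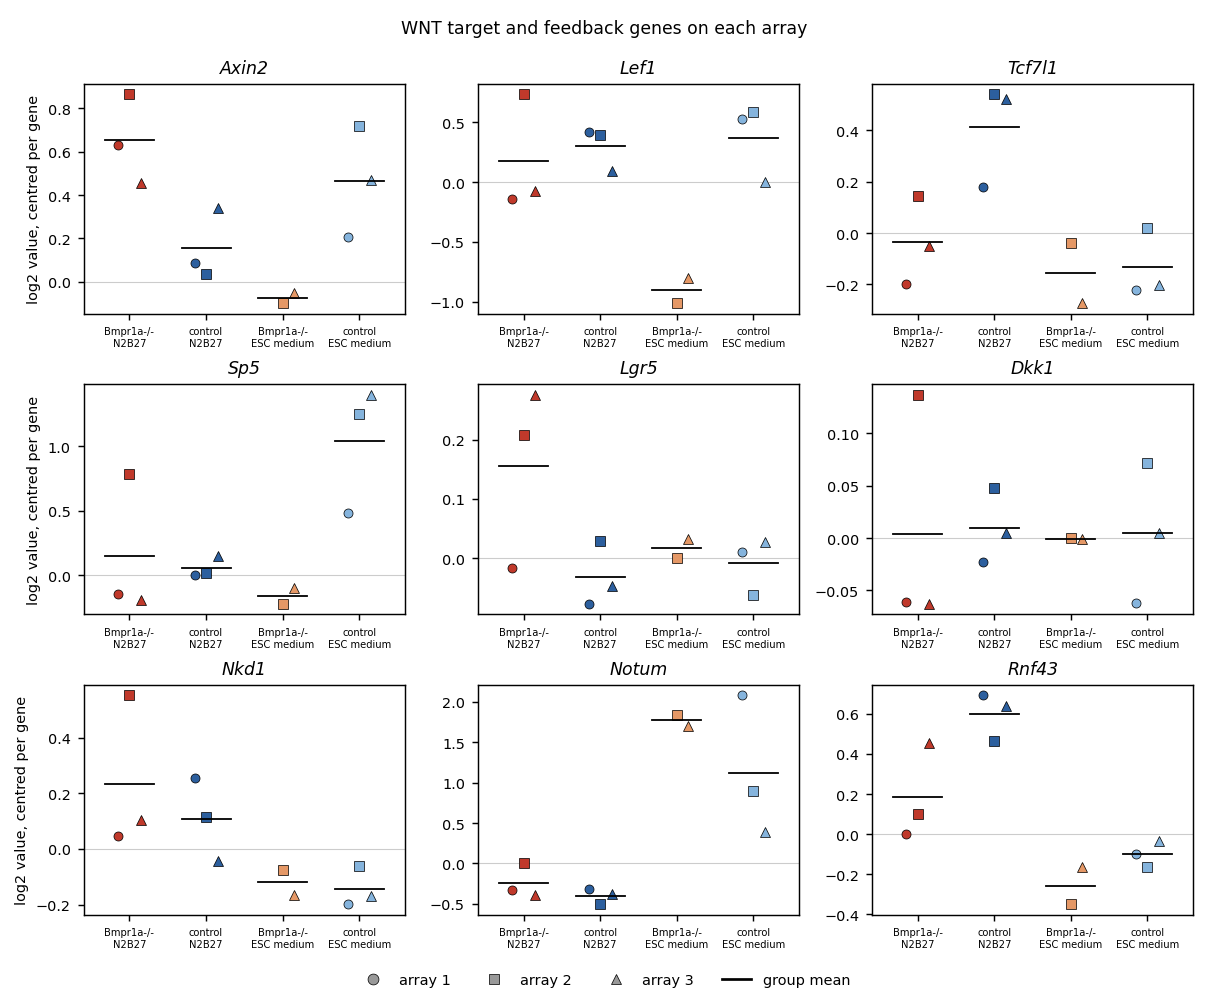
Centred log2 values (vertical axis) of the 9 measured genes on each array, by group (horizontal axis, mutant left of control and N2B27 left of ESC medium), with symbols for the array number and a line at the group mean. Axin2 lay between -0.10 and -0.05 in mutant arrays in ESC medium and between 0.46 and 0.87 in mutant arrays in N2B27, and mutant replicate 2 in N2B27 lay above its group mean for 8 of the 9 genes.

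In ESC medium, the TCF/LEF factor gene Lef1 and Sp5, a zinc finger transcription factor gene induced by β-catenin, fell in mutant cells, and none of the 9 genes rose. The 2 calls compare with 6.14% of all genes called in this comparison, at an adjusted p under 0.05, in limma's joint fit of the 4 groups with Benjamini-Hochberg adjustment over all genes. The median difference was -0.02 over the 9 genes and -0.01 over all genes. The spread of values over all clusters was wider on the mutant arrays of this medium, with SDs of 0.415 and 0.364, than on the other 9 arrays (0.211 to 0.301). Of 8 fibroblast and feeder cell markers, Col1a1 and Col1a2 fell with genotype in ESC medium, by 1.32 and 0.73 on the log2 scale, and the other 6 were not called. Of all genes, 3.05% fell in this comparison. The part of the wider spread or of these markers in the results below was not tested. In this and every other comparison, fewer cells of a type that express a gene and less RNA of it per cell cannot be told apart.

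Lef1 read -1.01 and -0.80 on mutant arrays, against 0.52, 0.58 and 0.00 on control arrays in this medium. The groups did not overlap, and control replicate 3 was the control array closest to the mutant ones. The log2 difference was -1.27 (SE 0.26, adjusted p = 0.0177 by limma). Sp5 read -0.22 and -0.10 in mutant arrays, against 0.48, 1.25 and 1.40 in control arrays. Again no mutant array reached the lowest control array, replicate 1. Its difference was -1.20 (SE 0.31, adjusted p = 0.0483 by limma). Both calls depended on single arrays: Lef1 was not called without control replicate 2 or without mutant replicate 2 or 3 in ESC medium (adjusted p from 0.0666 to 0.166), and Sp5 was called in 2 of 11 fits that left out 1 array, those without control replicate 1 in ESC medium (0.0116) or without mutant replicate 2 in N2B27 (0.0107). When arrays were quantile-normalized again, neither was called (-1.03 with adjusted p = 0.144, and -1.33 with adjusted p = 0.156). That step was run on the centred values and gives all arrays the same spread, also the mutant arrays with the wider spread in this medium.

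Axin2, a scaffold of the destruction complex that is itself a general target of β-catenin, read -0.10 and -0.05 in mutant arrays, against 0.21, 0.72 and 0.47 in control arrays in ESC medium. Each mutant array was below each control array, but the difference of -0.54 was not called (SE 0.16, adjusted p = 0.079 by limma). It was called without control replicate 1 in ESC medium (-0.67, adjusted p = 0.0264) and without mutant replicate 2 in N2B27 (adjusted p = 0.0491). Rnf43, encoding a ubiquitin ligase that removes Frizzled receptors from the cell surface, also had groups apart, at -0.35 and -0.16 in mutant and -0.10, -0.16 and -0.04 in control arrays, the closest pair differing past the second decimal, with a difference of -0.16 (SE 0.13, adjusted p = 0.646). In all, the groups of 4 of the 9 genes did not overlap, against 39.4% of all genes.

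The remaining genes of the set were not called between genotypes in ESC medium. Notum encodes a secreted enzyme that inactivates Wnt proteins by removing their lipid. It read 1.84 and 1.71 in mutant arrays, against 2.09, 0.89 and 0.39 in control arrays, whose spread covered both mutant values (difference 0.65, SE 0.37, adjusted p = 0.438). Without control replicate 1 the difference was 1.13 and was called (adjusted p = 0.00496). Tcf7l1 differed by -0.02 (95% interval -0.33 to 0.29), Lgr5, a receptor gene for R-spondins, by 0.02 (-0.17 to 0.21), and Dkk1, a secreted blocker of LRP co-receptors, by -0.01 (-0.17 to 0.16). Nkd1, whose product binds Dishevelled and restrains the pathway, lies on chromosome 8, and the median genotype difference of 961 genes of that chromosome was 0.11 in ESC medium and 0.17 in N2B27. Nkd1 differed by 0.02 and 0.13 in these media, or by -0.09 and -0.04 relative to that median.

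After 3 days in N2B27, no gene of the set was called between genotypes in limma's joint fit, against 5.74% of all genes. Tcf7l1 and Rnf43 were called only with the array number as a block or in some other alternative fits. Of 11 fits that left out 1 array, Tcf7l1 was called in 2, and Axin2, Rnf43 and Lgr5 in 1 each. An unadjusted p under 0.05 was found for 4 of the 9, Axin2, Tcf7l1, Rnf43 and Lgr5. It was also found for 23 of the 123 other pathway genes described below, and the share of all genes at that level was not counted. The groups of Axin2, Tcf7l1 and Rnf43 did not overlap, which was 3 of 9 against 20.2% of all genes. In the same comparison 4 of 8 pluripotency markers rose in mutant cells and 0 fell, against 4.1% of all genes higher and 1.64% lower, with a list median of 0.31. They were Zfp42 (1.78), Dppa5a (1.35), Esrrb (1.30) and Pou5f1 (0.48), and 2 of the 8 were called with the compared groups alone. Zfp42 lies on chromosome 8, and in the fit without chromosomes 8, X and Y 3 of the remaining 7 markers rose. The part of these markers in the WNT results was not tested.

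Axin2 read 0.63, 0.87 and 0.46 in mutant arrays, against 0.09, 0.04 and 0.34 in control arrays in N2B27. Here the mutant arrays were the higher ones, by 0.50 (SE 0.14, adjusted p = 0.0721 by limma). Without mutant replicate 2 the difference was 0.39 (adjusted p = 0.147). Tcf7l1 read -0.20, 0.14 and -0.05 in mutant arrays, against 0.18, 0.54 and 0.52 in control arrays. All mutant values were lower, with a difference of -0.45 (SE 0.12, adjusted p = 0.0679 by limma). Rnf43 read 0.00, 0.10 and 0.45 in mutant arrays, against 0.69, 0.46 and 0.64 in control arrays, and mutant replicate 3 lay just under the lowest control value. Its difference was -0.41 (SE 0.11, adjusted p = 0.0667 by limma). The array numbers were taken to pair the arrays of this comparison, which no label states. With the number as a block in limma, Tcf7l1 (-0.45, adjusted p = 0.00818) and Rnf43 (-0.41, adjusted p = 0.029) were called.

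Lgr5 read -0.02, 0.21 and 0.28 in mutant arrays, against -0.08, 0.03 and -0.05 in control arrays in N2B27. Mutant replicate 1 fell within the control range, and the difference of 0.19 was not called (SE 0.08, adjusted p = 0.204 by limma). It was called without mutant replicate 1 (0.27, adjusted p = 0.0344). Lef1 and Sp5, which were called in ESC medium, overlapped between genotypes here. Lef1 read -0.14, 0.74 and -0.07 in mutant arrays, against 0.42, 0.39 and 0.10 in control arrays, a difference of -0.13 (SE 0.23, 95% interval -0.64 to 0.39). Sp5 read -0.15, 0.78 and -0.19 in mutant arrays, against 0.00, 0.02 and 0.15 in control arrays. Mutant replicate 2 alone was above the control arrays, and the sign of the Sp5 difference depended on it (0.09, or -0.22 without that array). Notum differed by 0.16 (95% interval -0.58 to 0.90) and Dkk1 by -0.01 (-0.15 to 0.14).

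Between media, 4 of the 9 genes were called in mutant cells, against 25.2% of all genes, and 4 in control cells, against 26.1%. Notum and Rnf43 were called in both genotypes, Notum lower and Rnf43 higher in N2B27. Of the others called, Axin2 and Lef1 rose in mutant cells, and Tcf7l1 rose and Sp5 fell in control cells. Each comparison of media shares its arrays with those between genotypes, so the same array values underlie both.

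Notum gave the largest difference between media of the 9 genes in both genotypes. It read -0.33, 0.00 and -0.39 in N2B27 against 1.84 and 1.71 in ESC medium in mutant cells. In control cells it read -0.31, -0.51 and -0.37 in N2B27 against 2.09, 0.89 and 0.39 in ESC medium. All N2B27 arrays were below all ESC medium arrays in each genotype. The differences were -2.01 in mutant cells (SE 0.37, adjusted p = 0.00292 by limma) and -1.52 in control cells (SE 0.33, adjusted p = 0.00751 by limma). Both calls held in each of the 11 fits that left out 1 array, with -2.13 to -1.94 in mutant and -1.89 to -1.04 in control cells, and the interaction was -0.49 (SE 0.50, adjusted p = 0.773).

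Rnf43 rose in N2B27 in both genotypes. In mutant cells it read 0.00, 0.10 and 0.45 in N2B27 against -0.35 and -0.16 in ESC medium, and in control cells 0.69, 0.46 and 0.64 against -0.10, -0.16 and -0.04. The N2B27 arrays were the higher ones in each genotype. The difference was 0.44 in mutant cells (SE 0.13, adjusted p = 0.0288 by limma) and 0.70 in control cells (SE 0.11, adjusted p = 0.00157 by limma). Leaving out mutant replicate 2 (adjusted p = 0.223) or 3 (0.0557) in ESC medium ended the call in mutant cells, as did a fit without mutant replicate 3 in N2B27 (0.0588) or with the compared groups alone (0.11). The interaction was -0.26 (SE 0.17, adjusted p = 0.602).

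Tcf7l1 rose in N2B27 in control cells, by 0.55 (SE 0.12, adjusted p = 0.00908 by limma), with 0.18, 0.54 and 0.52 in N2B27 against -0.22, 0.02 and -0.20 in ESC medium. In mutant cells it read -0.20, 0.14 and -0.05 in N2B27 against -0.04 and -0.27 in ESC medium, which overlapped (difference 0.12, 95% interval -0.19 to 0.43). The interaction was -0.43 (SE 0.19, adjusted p = 0.348), so the response was not shown to differ between genotypes. Sp5 fell in control cells by 0.99 on the log2 scale (SE 0.28, adjusted p = 0.024 by limma), a call lost without control replicate 2 (0.0828) or 3 (0.0853) in ESC medium or any 1 of the control arrays in N2B27 (0.0532 to 0.068). In mutant cells its difference was 0.31 (95% interval -0.38 to 1.00), or -0.01 without mutant replicate 2 in N2B27. The Sp5 interaction was 1.30 (SE 0.41, adjusted p = 0.173).

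Axin2 and Lef1 rose in N2B27 in mutant cells. Axin2 rose by 0.73 (SE 0.16, adjusted p = 0.00692 by limma), and by 0.62 without mutant replicate 2 in N2B27 (adjusted p = 0.0147). Lef1 rose by 1.08 (SE 0.26, adjusted p = 0.0117 by limma), and by 0.80 without that array (adjusted p = 0.0104). Both calls were lost without mutant replicate 2 in ESC medium (0.0596 for Axin2 and 0.102 for Lef1). After a second quantile normalization 2 of the 4 calls in mutant cells were lost, those of Lef1 (0.88, adjusted p = 0.0806) and Rnf43 (0.37, adjusted p = 0.0679). In control cells Axin2 differed by -0.31 (SE 0.14, adjusted p = 0.147) and Lef1 by -0.07 (SE 0.23, adjusted p = 0.898). Nkd1 was higher in each N2B27 array than in the ESC medium arrays of the same genotype, with differences of 0.36 (adjusted p = 0.101) in mutant and 0.25 (adjusted p = 0.194) in control cells, neither called. Lgr5 and Dkk1 were not called in either genotype, with differences of 0.14 and 0.00 in mutant and of -0.02 and 0.00 in control cells. In each genotype the media were apart for 5 of the 9 genes, against 43.5% of all genes in mutant and 43.9% in control cells.

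The interaction subtracts the genotype effect seen in ESC medium from the one seen in N2B27. Of the 9 genes, Axin2 was called, at 1.04 (SE 0.21, adjusted p = 0.0367 by limma), against 2.12% of all genes called and 1.57% called higher. Axin2 was thus lower in mutant than in control arrays in ESC medium and higher in N2B27, with groups apart in both media and neither single difference called. The interaction of Axin2 was called in 3 of 11 fits that left out 1 array, with values from 0.91 to 1.17 and adjusted p from 0.0152 to 0.162. It was called at 0.93 without mutant replicate 2 in N2B27 (adjusted p = 0.0437) and at 1.10 with the array number as a block (0.0285), and not after a second quantile normalization (1.22, adjusted p = 0.116). Lef1 had an interaction of 1.15 (SE 0.35, adjusted p = 0.147), and the other 7 genes had adjusted p from 0.173 to 1.

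**Figure D2:**
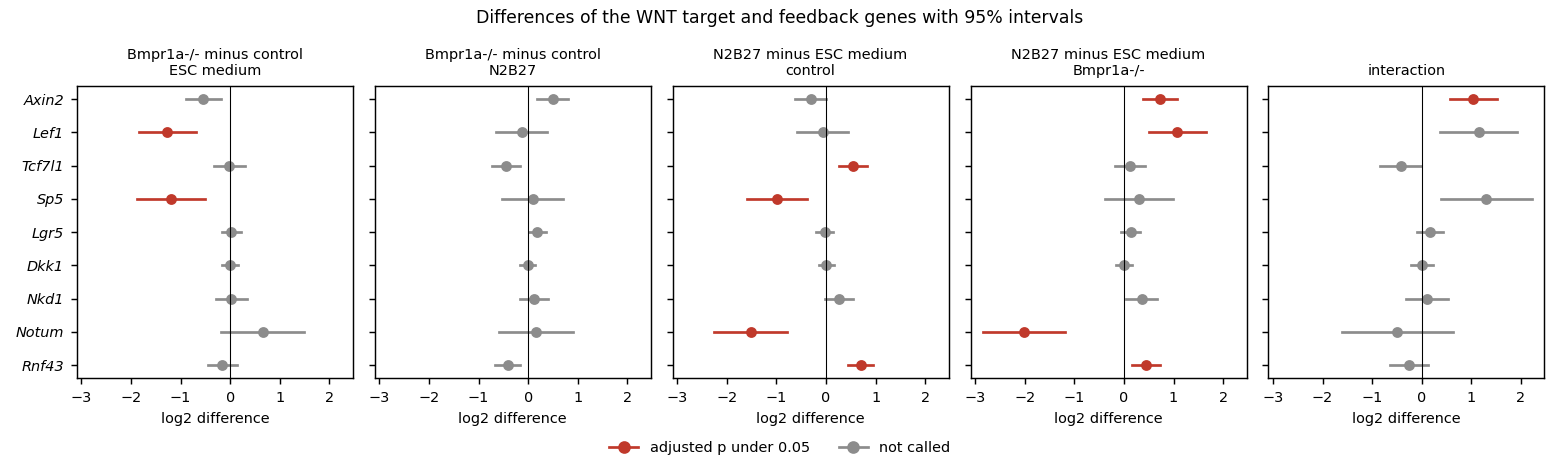
Log2 differences (horizontal axis) of the 9 genes (vertical axis) with 95% intervals from the limma fit, in 5 panels: mutant minus control in each medium, N2B27 minus ESC medium for both genotypes, and their interaction. Red marks an adjusted p under 0.05, as for Lef1 (-1.27) and Sp5 (-1.20) in ESC medium and Axin2 in the interaction (1.04).

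The other parts of the pathway were described with 7 lists of 123 measured genes in all. In ESC medium, 2 of the 123 rose and 12 fell in mutant cells, against 3.09% of all genes higher and 3.05% lower, and in N2B27 5 rose and 2 fell, against 4.1% and 1.64%. In ESC medium 0 rose and 6 fell after a second quantile normalization, and 0 rose and 4 fell without either of the mutant arrays of that medium. In N2B27 1 rose and 2 fell with the compared groups alone. The list median in ESC medium was -0.09 for Wnt ligands and their secretion, -0.21 for receptors and agonists and -0.04 for inhibitors. It was 0.01 for destruction complex and cytoplasmic transducers, -0.03 for nuclear cofactors and -0.20 for other reported β-catenin targets. For the 5 naive genes repressed by Tcf7l1 it was 0.31, with none called, and for all genes -0.01.

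Of 21 genes for ligands and their secretion, 3 fell in mutant cells in ESC medium, against 3.05% of all genes lower. Wls, which carries Wnt proteins to the cell surface, fell by 1.03 on the log2 scale (SE 0.26, adjusted p = 0.0437 by limma). Wnt7b fell by 0.50 (SE 0.08, adjusted p = 0.00484) and Wnt4 by 0.48 (SE 0.08, adjusted p = 0.00631). The call of Wls was lost in 8 of 11 fits that left out 1 array, and under quantile normalization its difference was -0.58 (adjusted p = 0.42). Between media, Wls rose by 1.80 in mutant (SE 0.26, adjusted p = 0.000686) and 1.07 in control cells (SE 0.23, adjusted p = 0.00675). Wnt9a, a ligand gene, was higher in N2B27 in mutant cells, with a difference of 0.48 (SE 0.15, adjusted p = 0.0452), a call kept in 3 of 11 fits that left out 1 array. In all, between media 3 of the 21 rose and 1 fell in mutant cells, against 14.9% of all genes higher and 10.3% lower. In control cells 1 rose and 2 fell, against 12.8% and 13.3%. Porcn, the X-linked gene for the enzyme that attaches the lipid to Wnt proteins, fell by 1.85 in mutant (SE 0.24) and 2.00 in control cells (SE 0.21). Porcn read -0.61, 0.00 and -0.56 in N2B27 against 1.53 and 1.39 in ESC medium in mutant cells. In control cells it read -0.65, -0.72 and -0.64 in N2B27 against 1.84, 1.04 and 1.10 in ESC medium. Transcripts of Porcn, whose product adds the Wnt lipid, and of Notum, whose product removes it, were thus both lower in N2B27 in each genotype. Protein was not measured.

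Of 21 receptor and agonist genes, 3 fell in mutant cells in ESC medium, against 3.05% of all genes lower. None was called in N2B27 by limma (1 had an unadjusted p under 0.05), where 4.1% of all genes rose and 1.64% fell. Fzd2, a Frizzled receptor gene, read -1.76 and -1.35 in mutant against -0.86, -0.64 and -0.78 in control arrays in ESC medium (difference -0.80, SE 0.13, adjusted p = 0.0059). Fzd7, another Frizzled gene and a reported β-catenin target, read -1.78 and -1.20 in mutant against -0.41, -0.77 and -0.75 in control arrays (-0.85, SE 0.16, adjusted p = 0.0131). The co-receptor gene Lrp5 differed by -0.54 (SE 0.11, adjusted p = 0.0172). All 3 were lower on each mutant array, and none of them was called after a second quantile normalization, with -0.16, -0.22 and -0.27. In N2B27 against ESC medium, 8 of the 21 rose and 0 fell in mutant cells, and 9 rose and 1 fell in control cells, against 14.9% and 10.3% of all genes in mutant and 12.8% and 13.3% in control cells. Fzd2 rose by 1.94 in mutant (SE 0.13) and 1.19 in control cells (SE 0.11), Ror1, an alternative Wnt receptor gene, by 1.86 (SE 0.17) and 1.12 (SE 0.16), and Fzd7 by 1.39 (SE 0.16) and 0.68 (SE 0.14). The interaction of Fzd2 was 0.75 (SE 0.17, adjusted p = 0.0593).

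Of 18 other inhibitor genes measured, 2 fell in mutant cells in ESC medium, against 3.05% of all genes lower. Sfrp2, a secreted antagonist that binds Wnt proteins, read -1.98 and -1.19 in mutant against 0.02, 0.22 and 0.20 in control arrays in ESC medium, a difference of -1.73 (SE 0.19, adjusted p = 0.000892), and this call held in all 11 fits that left out 1 array. In N2B27 it read 0.19, 0.34 and 0.00 in mutant against 0.74, 0.81 and 0.88 in control arrays (-0.63, SE 0.17, adjusted p = 0.0612). Kremen1, a receptor for Dkk proteins, differed by -0.38 in ESC medium (SE 0.08, adjusted p = 0.0182), or by -0.09 after a second quantile normalization (adjusted p = 0.817). In N2B27 against ESC medium Sfrp2 and Kremen1 rose in mutant cells, by 1.76 (SE 0.19) and 0.75 (SE 0.08), while Sfrp4, a related antagonist, fell by 0.57 (SE 0.18, adjusted p = 0.0455, called in 2 of 11 fits that left out 1 array). In control cells Sfrp1 rose by 1.43 (SE 0.26) and Sfrp2 by 0.66 (SE 0.17), and Sfrp4 fell by 1.15 (SE 0.16).

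**Figure D3:**
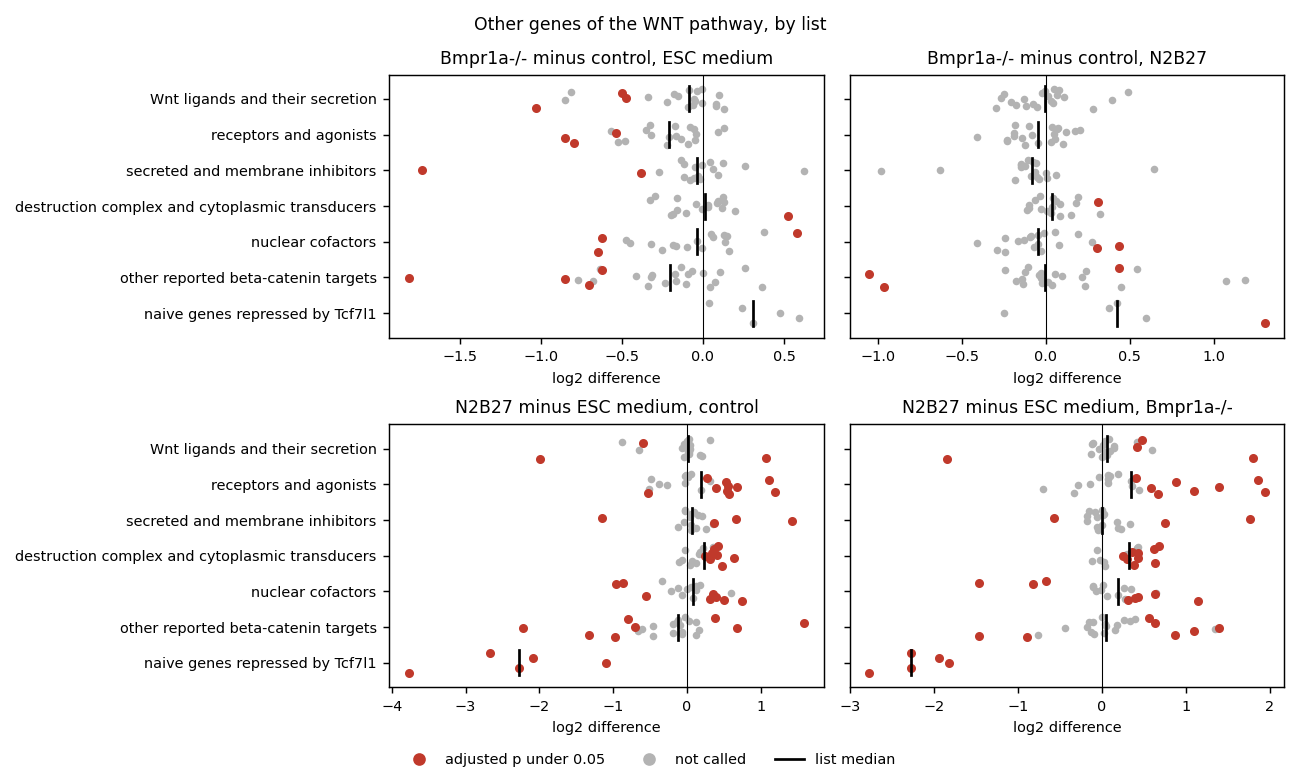
Log2 differences (horizontal axis) of the other measured genes of the WNT pathway in 7 lists (vertical axis), mutant minus control above and N2B27 minus ESC medium below. Each point is a gene, red where its adjusted p was under 0.05, and bars mark list medians, such as -0.21 for receptors and agonists in ESC medium between genotypes.

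Of 18 genes for the destruction complex and cytoplasmic transducers, 1 rose and 0 fell between genotypes in each medium. Of all genes, 3.09% rose in ESC medium and 4.1% in N2B27. Amer1, an X-linked APC partner, rose by 0.53 in ESC medium (SE 0.10, adjusted p = 0.0113 by limma). Fbxw11, a ubiquitin ligase subunit gene, rose by 0.31 in N2B27 (SE 0.07, adjusted p = 0.0264 by limma). Amer1 was not called after a second quantile normalization (adjusted p = 0.0558) or without mutant replicate 2 (0.114) or 3 (0.066) in ESC medium, and Fbxw11 was not called with the compared groups alone (0.108) or in 3 of 11 fits that left out 1 array, those without control replicate 1 or 2 or mutant replicate 3 in N2B27. Between media 9 rose and 0 fell in mutant cells, against 14.9% of all genes higher and 10.3% lower. In control cells 8 rose and 0 fell, against 12.8% and 13.3%. The β-catenin gene Ctnnb1 rose by 0.25 in mutant (SE 0.06, adjusted p = 0.0121) and 0.24 in control cells (SE 0.05, adjusted p = 0.00704), with a genotype difference of 0.03 in each medium (95% interval -0.10 to 0.17 in ESC medium and -0.08 to 0.15 in N2B27). Gsk3b, the kinase gene, rose by 0.62 in mutant cells (SE 0.09), and the poly-ADP-ribosylating Axin regulator gene Tnks2 by 0.68 (SE 0.11) in mutant and 0.42 (SE 0.10) in control cells. Csnk1e, a casein kinase gene, rose by 0.65 in control cells (SE 0.11) and Apc2, an APC homologue, by 0.64 in mutant cells (SE 0.14). Amer1 rose by 0.48 in control cells (SE 0.09).

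Of 19 nuclear cofactor genes, Bcl9, a β-catenin coactivator gene, fell by 0.65 in mutant cells in ESC medium (SE 0.13, adjusted p = 0.0167), as did the remaining TCF/LEF gene Tcf7l2, by 0.62 (SE 0.16, adjusted p = 0.0489). Tle5, a short member of the Groucho corepressor family, rose by 0.58 (SE 0.13, adjusted p = 0.0306). That is 2 of 19 lower and 1 higher, against 3.05% and 3.09% of all genes. The calls of Bcl9, Tcf7l2 and Tle5 were lost in 4, 8 and 5 of 11 fits that left out 1 array. All 3 were lost after a second quantile normalization, at -0.40 for Bcl9 (adjusted p = 0.466), -0.49 for Tcf7l2 (0.19) and 0.15 for Tle5 (0.759), and Tle5 also with the compared groups alone (0.0581). In N2B27 Ctbp2, a corepressor gene, and Crebbp, a histone acetyltransferase gene, rose in mutant cells, 2 of 19 against 4.1% of all genes. The difference was 0.44 for Ctbp2 (SE 0.10, adjusted p = 0.0297 by limma), while Crebbp differed by 0.30 (SE 0.07, adjusted p = 0.0334). Both calls were lost with the compared groups alone (0.114 and 0.0778), and were kept in 3 and 6 of 11 fits that left out 1 array. Ctbp2 was also not called after a second quantile normalization (0.39, adjusted p = 0.0764) or with array weights (0.26, adjusted p = 0.0519). Between media 5 of the 19 rose and 3 fell in each genotype. Of all genes, 14.9% rose and 10.3% fell in mutant cells, and 12.8% rose and 13.3% fell in control cells. Tle5 fell by 1.47 in mutant (SE 0.13) and 0.87 in control cells (SE 0.12), Tle4, a Groucho corepressor gene, by 0.82 (SE 0.18) and 0.96 (SE 0.16), and Bcl9 rose by 1.14 (SE 0.13) and 0.74 (SE 0.12).

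Of 24 other reported β-catenin targets, 4 fell in mutant cells in ESC medium, Id2, Fzd7, Cd44 and Tcf7l2, and none rose. Of all genes, 3.05% fell and 3.09% rose in that comparison. Fzd7 and Tcf7l2 are the same calls as those given above among receptors and nuclear cofactors. Id2, an inhibitor of basic helix-loop-helix factors, had the largest of the 4 differences, -1.81 (SE 0.28, adjusted p = 0.00514 by limma). It was -2.01 to -1.70 in fits that left out 1 array, and called in 9 of 11. Id2 is also a direct target of BMP signalling, so it belongs to both pathways. Cd44, a cell surface receptor gene, read -0.60 and -0.76 in mutant against 0.06, 0.03 and -0.03 in control arrays in ESC medium. Its difference was -0.70 (SE 0.11, adjusted p = 0.00573 by limma), called in 10 of 11 fits that left out 1 array. The groups of Cd44 overlapped in N2B27 (0.04, SE 0.10, adjusted p = 0.914). In N2B27 Prox1, a homeobox gene, and Bmp4 fell in mutant cells. That is 2 of 24 lower, with 1 higher, against 1.64% and 4.1% of all genes. The difference was -1.05 for Prox1 (SE 0.18, adjusted p = 0.0108), while Bmp4 differed by -0.97 (SE 0.20, adjusted p = 0.024), and the transcription factor gene Twist1 rose by 0.43 (SE 0.08, adjusted p = 0.0117). With the compared groups alone, Prox1 (0.0632) and Twist1 (0.0663) were not called. Bmp4 was not called in 4 of 11 fits that left out 1 array, which dropped replicate 2 or 3 of either genotype in N2B27 (adjusted p from 0.0529 to 0.0942). Between media 5 rose and 2 fell in mutant cells, against 14.9% of all genes higher and 10.3% lower. In control cells 3 rose and 5 fell, against 12.8% and 13.3%. In mutant cells Bmp4 fell by 1.46 (SE 0.23), and Eomes, a T-box gene of the primitive streak, rose by 1.10 (SE 0.31, adjusted p = 0.0276, or 0.53 with adjusted p = 0.124 under array weights). In control cells Id2 fell by 2.23 (SE 0.25), Ccnd1, the cyclin D1 gene, by 1.33 (SE 0.30), and Prox1 rose by 1.59 (SE 0.18).

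**Figure D4:**
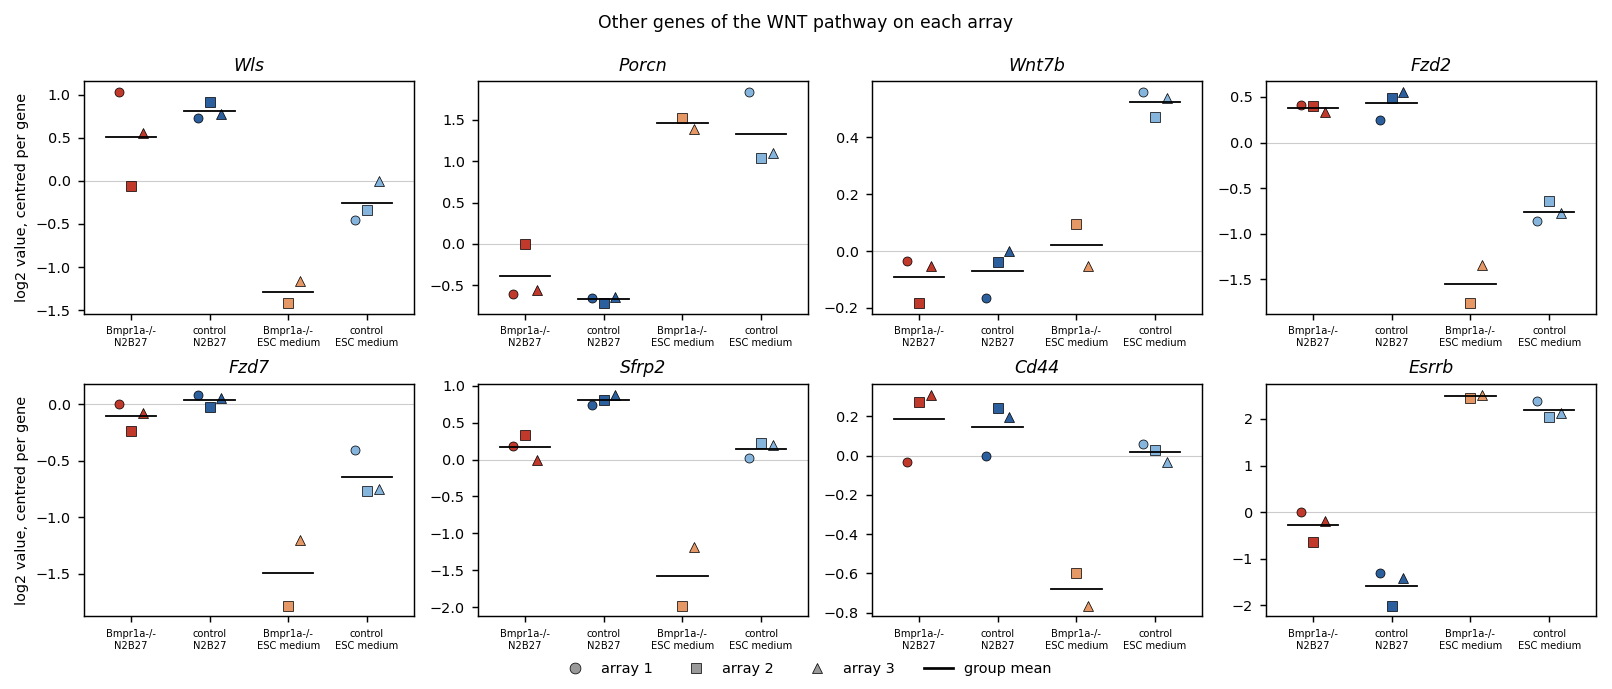
Centred log2 values (vertical axis) of 8 other pathway genes on each array, by group (horizontal axis, mutant left of control and N2B27 left of ESC medium), with a line at the group mean. Sfrp2 lay at -1.98 and -1.19 in mutant arrays in ESC medium, with all other arrays between 0.00 and 0.88.

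Genes that Tcf7l1 is known to repress were set beside it. In N2B27 against ESC medium, Esrrb, Tfcp2l1, Klf2, Nr5a2 and Nanog, transcription factor genes of the naive state, all fell in both genotypes, 5 of 5, against 10.3% of all genes lower in mutant and 13.3% in control cells. In that order the differences were -2.77, -2.28, -2.27, -1.94 and -1.82 in mutant cells and -3.77, -2.67, -2.27, -2.08 and -1.10 in control cells. The list median was -2.27 in each genotype, while Tcf7l1 rose in control cells and was not called in mutant cells (0.12, adjusted p = 0.638 by limma). Nanog in control cells was called in 6 of 11 fits that left out 1 array. Between genotypes in N2B27, Tcf7l1 was lower on every mutant array, a difference not called (-0.45, adjusted p = 0.0679 by limma), and Esrrb rose in mutant cells. A link between the genotype differences of Tcf7l1 and Esrrb was not tested. The Esrrb difference was 1.30 (SE 0.20, adjusted p = 0.0057), with 0.00, -0.64 and -0.19 in mutant against -1.31, -2.01 and -1.42 in control arrays, and the other 4 were not called. That is 1 of 5 against 4.1% of all genes higher, and Esrrb is also 1 of the 4 pluripotency markers that rose in mutant cells in N2B27. In ESC medium none of the 5 was called by limma between genotypes (1 had an unadjusted p under 0.05), and their differences of 0.03 to 0.60 all turned negative after a second quantile normalization (-0.80 to -0.01), with Nr5a2 then called (-0.47, adjusted p = 0.0297). That normalization removes the wider spread of the mutant arrays in this medium, so these reversals do not show the direction of the difference. With the compared groups alone Klf2 (0.60, adjusted p = 0.0324) and Nanog (0.47, adjusted p = 0.0163) were called in ESC medium.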

How the data were processed

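The deposited table held log2 values per transcript cluster. The authors made them with RMA in Expression Console 1.2 from Affymetrix, as the submitters' processing notes record. A base of 2 was inferred from what RMA normally gives, and clusters were then centred, a step not given in the sources used here. At least 1 array was at exactly 0 in 55.8% of the 28815 clusters. Signal over background, and with it a filter on dim probes, is lost, and with 2 or 3 arrays per group the precision is low.

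The platform annotation gave 21780 clusters a single symbol, which were used, 1605 several and 5430 none. Of those used, 21689 matched the RefSeq gene table of GRCm38.p6. Clusters of a gene were averaged to 19935 genes. The 4 groups were fitted together with limma 3.58.1 (lmFit, eBayes) in R 4.3.3, with two-sided tests, and the script was tested on simulated data. A gene was called at a Benjamini-Hochberg adjusted p under 0.05 over all genes. The 10 genes, the lists and the tests were chosen with earlier results of these data known. Named besides the 10 genes and Bmpr1a were up to 3 called genes with the largest difference per list and comparison, the 5 naive genes, and the 3 genes nearest in pattern to each measured gene. Ctnnb1, and markers and uncalled values named beside these, were added after values were seen.

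Arrays that share a number deviated together from their group means, with correlations over genes of 0.256, 0.430 and 0.158 between genotypes in N2B27 and of 0.138, 0.181 and 0.131 between media in control cells, so numbers were taken to pair arrays there. The mutant group in ESC medium leaves 2 pairs, at 0.0365 and 0.284 between genotypes and 0.215 and 0.266 between media, too few to decide. No label states such pairing, and arrays with unlike numbers were not correlated for comparison, so the pairing is an assumption. Alternatives were the compared groups alone, the number as a block, each array left out, array median centring, a second quantile normalization, array weights, each cluster on its own, and leaving out chromosomes 8, X and Y. The alternatives for pathway genes were added after seeing the data. The second quantile normalization was run on the centred values and gives every array the same distribution. It removes differences in spread between arrays and cannot tell whether they are technical or biological.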

Additional observations from a re-analysis of the deposited data

Results flagged for a closer look

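The genotype difference changed between media, by limma's interaction test, for 1 of the 9 genes and for 3 of 123 genes of the pathway lists. Of all genes, 2.12% were called in this test. For Axin2 the genotype difference in N2B27 exceeded that in ESC medium by 1.04 (adjusted p = 0.0367). For Wnt7b it did so by 0.48 (adjusted p = 0.0489), called in 1 of 11 fits that left out 1 array and not with the array number as a block (adjusted p = 0.0707) or after a second quantile normalization (0.57, adjusted p = 0.065). For Id2 the interaction was 1.79 (adjusted p = 0.0447), called in 3 of 11 such fits and not after a second quantile normalization (1.47, adjusted p = 0.262). For Cd44 it was 0.74 (adjusted p = 0.0367), called in 2 of 11 such fits and not after that normalization (0.53, adjusted p = 0.133). No group had more than 3 arrays, so outlying arrays were not tested for.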

How the results depend on the processing

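Of 796 alternative values of the 9 genes, 698 kept direction and side of the threshold, and of 1314 for named pathway genes 1141 did. After a second quantile normalization the 9 genes had 0 calls between genotypes in ESC medium, 1 in N2B27, 2 between media in mutant cells and 0 in the interaction, against 2, 0, 4 and 1. Over all genes it gave 468 calls between genotypes in ESC medium (287 higher and 181 lower, against 615 and 609) and 227 in the interaction. Array weights gave the 9 genes 2 calls between genotypes in N2B27 and 3 in the interaction, and all genes 3138 in ESC medium, 2882 in N2B27, 7689 between media in mutant cells and 1782 in the interaction. Without chromosomes 8, X and Y, 1 of the 9 and 766 of all genes were called in ESC medium and 610 of all genes in N2B27, where fewer genes were tested. With the compared groups alone the counts were 1 of the 9 genes in ESC medium and 397 of all genes in N2B27. With the array number as a block, 2 of the 9 genes were called between genotypes in N2B27 and 657 of all genes in the interaction, and the block changed no other call of the 9 genes. Among named pathway genes the block ended 3 calls, of Wls (0.0503) and Tle5 (0.053) between genotypes in ESC medium and of Wnt7b in the interaction (0.0707, all adjusted p). Leaving out each array in turn gave 0 to 4 of the 9 and 304 to 1707 of all genes between genotypes in ESC medium, 0 to 1 of the 9 and 454 to 1251 of all genes in N2B27, 3 to 5 of the 9 and 3987 to 6044 of all genes between media in control cells, 1 to 5 of the 9 and 2720 to 5956 of all genes in mutant cells and 0 to 2 and 59 to 633 in the interaction. In all, 47 alternative values changed sign, 1 of them (Nr5a2) past the threshold. With the replicate block these were Lgr5 -0.0090 between genotypes in ESC medium, Dkk1 0.028 in the interaction. After a second quantile normalization these were Tcf7l1 0.023 between genotypes in ESC medium, Dkk1 -0.010 between media in control cells, Dkk1 0.011 in the interaction, Notum 0.071 in the interaction, Esrrb -0.80 between genotypes in ESC medium, Tfcp2l1 -0.72 between genotypes in ESC medium, Klf2 -0.20 between genotypes in ESC medium, Nr5a2 -0.47 between genotypes in ESC medium, Nanog -0.014 between genotypes in ESC medium. With array weights these were Nkd1 -0.0093 between genotypes in ESC medium, Sp5 -0.19 between genotypes in N2B27, Lgr5 0.0028 between media in control cells, Dkk1 -0.018 between media in control cells, Dkk1 -0.049 between media in mutant cells. With array median centring these were Dkk1 -0.00083 between media in control cells, Dkk1 0.0016 in the interaction. Over the fits without 1 array, the ranges that crossed 0 were Nkd1 -0.023 to 0.068, Tcf7l1 -0.14 to 0.10, Lgr5 -0.0029 to 0.042, Dkk1 -0.039 to 0.028, Tfcp2l1 -0.048 to 0.12 between genotypes in ESC medium, Dkk1 -0.072 to 0.028, Lef1 -0.41 to 0.031, Sp5 -0.22 to 0.26, Nkd1 -0.033 to 0.22, Nanog -0.49 to 0.12 between genotypes in N2B27, Lef1 -0.25 to 0.039, Dkk1 -0.029 to 0.038 between media in control cells, Sp5 -0.0078 to 0.48, Dkk1 -0.062 to 0.038 between media in mutant cells, Dkk1 -0.067 to 0.033, Nkd1 -0.056 to 0.20 in the interaction. The cause of these changes was not tested. The planned filter on dim probes was not run, since brightness is lost.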

Other observations

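The genes nearest in pattern to each WNT gene were ranked by the root mean square difference over the 11 arrays, after each gene was centred on its own mean, and nothing about shared function or control follows from it. Nearest to Axin2 were Slco5a1 (0.127), Fam83h (0.128) and Fam53b (0.136), against a spread of 0.310 for Axin2 itself on the same scale. Nearest to Lef1, whose spread was 0.534, were Map7d3 (0.228), Pkdcc (0.263) and Cntfr (0.291). Nearest to Sp5, with 0.559, were Irgm1 (0.250), Car2 (0.251) and Smim3 (0.284). Nearest to Notum, with 0.957, were Acsbg3 (0.246), Pcolce2 (0.254) and the ephrin receptor gene Epha4 (0.262). For Tcf7l1 the nearest were Iqsec2, Aurkb and Tesk1 (0.0896 to 0.110), and for Rnf43 Abca2, Lrp11 and Cyp2d22 (0.0796 to 0.0943). No other member of the set was among the 3 nearest of any of the 9 genes.

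Markers of other cell types were followed in the same arrays, with all genes as background. In N2B27 against ESC medium, 14.9% of all genes rose and 10.3% fell in mutant cells, and 12.8% rose and 13.3% fell in control cells. Of 11 genes of the primitive streak and mesoderm, in which WNT targets are active in the embryo, Eomes and Tbx6 rose in N2B27 in mutant cells, by 1.10 and 0.37, and none was called in control cells. Of 8 neural progenitor genes, Nes rose in N2B27 in mutant cells by 2.08 and Sox1 in control cells by 0.33. Of 8 primitive endoderm genes, Dab2 rose in N2B27 by 0.57 in mutant and 0.73 in control cells. Of 7 trophoblast genes, Eomes and Krt7 rose and Ascl2 and Tfap2c fell in N2B27 in mutant cells, and Ascl2 and Tfap2c fell in control cells. Of 8 fibroblast and feeder cell genes, Thy1 rose in N2B27 in mutant cells by 0.83, and in control cells Thy1 rose by 1.10, Dcn rose by 0.87 and Col1a1 fell by 1.35.

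Between genotypes in N2B27, 4.1% of all genes rose and 1.64% fell in mutant cells. There Nes rose by 1.27 (1 of 8 neural genes), Tfap2c rose by 0.98 (1 of 7 trophoblast genes, list median 0.40), Dab2 fell by 0.51 (1 of 8 primitive endoderm genes) and Col1a2 fell by 0.58 (1 of 8 fibroblast genes), and none of the 11 streak and mesoderm genes was called. In ESC medium, Zfp42 of the 8 pluripotency markers rose in mutant cells, by 0.88, and no neural, streak, endoderm or trophoblast marker was called. There 3.09% of all genes rose and 3.05% fell. Zfp42 lies on chromosome 8, whose genes had a median genotype difference of 0.11 in ESC medium and 0.17 in N2B27. The part of these cell types in the WNT results was not tested.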
